A study of Mus musculus with 9 samples.

Results

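BALB/c mouse eyes were compared with the eyes of A/J and C57BL/6J mice, to describe the genes in which BALB/c stood apart from both of the other strains. The comparison used all 9 whole-eye libraries of the series, 3 per strain. It set the 3 BALB/c libraries against the mean of the A/J and C57BL/6J strain means, so that both other strains weighed equally. A gene is described as set apart where its 3 BALB/c values all lay above, or all lay below, the 6 other values. Of 12920 genes tested, 282 were set apart and also passed the test (2.18%), 224 of them with BALB/c higher (1.73%) and 58 with BALB/c lower (0.449%).

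All mice were wild-type females of 4 weeks, and each library was made from pooled RNA of 5 mice. Strain was therefore the only label that differed, and sex, age and genotype were shared by all groups. The series was designed around strains whose retinas degenerate at different rates. BALB/c mice lack pigment, as do A/J mice, whereas the eyes of C57BL/6J are pigmented; the substrain of BALB/c is not named in the labels. Nor do the labels state that replicate libraries were made from separate pools, and the p-values then cover only library-to-library spread, which may be technical.

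The eye gathers very different tissues in a single organ. The lens is packed with crystallins, the small proteins that give it its refractive power, and the retina holds rods, cones and several kinds of interneuron, some of which release neuropeptides such as neuropeptide Y and somatostatin. Vasopressin and oxytocin are best known as hormones of hypothalamic neurons, and their genes lie next to each other in opposite orientation. Zhx2 encodes a zinc-finger and homeobox protein known as a repressor of alpha-fetoprotein in the adult mouse liver, and the BALB/cJ substrain is known for low Zhx2 expression. The Serpina3 genes form a cluster of serine protease inhibitors that has multiplied in the mouse.

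Promoter sequences are shown for the neuropeptide genes Avp, Oxt and Sst and for the crystallin genes Cryga and Crygf, as examples of list members set apart together. Other related genes were also set apart together, such as Gstp1 and Gstp2, and their promoters are not shown. The sequences come from RefSeq on GRCm38.p6, which is the C57BL/6J reference, so the letters say nothing of the BALB/c sequence. The table held a promoter for 207 of the 282 genes, and each entry runs from 250 bases before the annotated start to 50 bases after it. Both strands were searched for CACGTG (an E-box), for TGACGTCA (the cyclic AMP response element), for AGGTCA (the half-site of nuclear receptors) and for the longest run shared by the Cryga and Crygf promoters, TGCCAACACAGCAG. None of these motifs contains another. Capitals mark the matches. The Avp entry lies at chr2:130582539-130582838 on the minus strand, and its CACGTG starts 139 bases before the start. The Oxt entry lies at chr2:130575919-130576218 on the plus strand, with AGGTCA 185 and, on the other strand, 166 bases before the start. The Sst entry lies at chr16:23890795-23891094 on the minus strand, with TGACGTCA 48 bases before the start. The Cryga entry lies at chr1:65103314-65103613 on the minus strand and the Crygf entry at chr1:65926272-65926571 on the plus strand, and their shared run of 14 bases starts 64 and 55 bases before the respective starts; AGGTCA occurs 1 time in the former and 2 times in the latter, on either strand.
Avp: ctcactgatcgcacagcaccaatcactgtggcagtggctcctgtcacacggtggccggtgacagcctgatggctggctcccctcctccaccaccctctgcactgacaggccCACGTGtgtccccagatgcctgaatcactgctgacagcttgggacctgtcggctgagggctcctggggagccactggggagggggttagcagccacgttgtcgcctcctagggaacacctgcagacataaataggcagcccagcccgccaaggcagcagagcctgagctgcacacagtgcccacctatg
Oxt: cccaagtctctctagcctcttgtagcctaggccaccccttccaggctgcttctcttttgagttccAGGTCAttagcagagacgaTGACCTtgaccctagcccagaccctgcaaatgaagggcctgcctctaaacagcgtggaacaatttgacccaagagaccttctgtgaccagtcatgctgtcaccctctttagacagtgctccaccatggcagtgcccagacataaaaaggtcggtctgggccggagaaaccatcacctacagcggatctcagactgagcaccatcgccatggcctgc
Sst: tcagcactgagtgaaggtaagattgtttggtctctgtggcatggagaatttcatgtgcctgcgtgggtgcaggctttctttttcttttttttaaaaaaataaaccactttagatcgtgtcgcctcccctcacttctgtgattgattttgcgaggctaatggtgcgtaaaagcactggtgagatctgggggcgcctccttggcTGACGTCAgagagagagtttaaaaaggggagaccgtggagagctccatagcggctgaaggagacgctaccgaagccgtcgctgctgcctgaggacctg
Cryga: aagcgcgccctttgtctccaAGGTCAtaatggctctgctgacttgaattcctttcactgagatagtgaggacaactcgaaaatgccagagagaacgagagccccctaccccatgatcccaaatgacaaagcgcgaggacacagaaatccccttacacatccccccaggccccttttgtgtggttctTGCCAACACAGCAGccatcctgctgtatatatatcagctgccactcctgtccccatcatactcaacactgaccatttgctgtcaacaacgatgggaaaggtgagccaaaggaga
Crygf: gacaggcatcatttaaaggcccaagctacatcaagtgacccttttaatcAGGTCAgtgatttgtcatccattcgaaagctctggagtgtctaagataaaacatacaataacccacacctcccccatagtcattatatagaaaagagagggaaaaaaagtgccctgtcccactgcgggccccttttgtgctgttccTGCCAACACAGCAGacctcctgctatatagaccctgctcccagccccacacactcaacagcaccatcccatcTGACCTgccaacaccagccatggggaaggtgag

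Among 32817 RefSeq promoters of the same length, 7.15% held CACGTG, 1.79% held TGACGTCA, 16.3% held AGGTCA and 0.00609% (2 promoters, those of Cryga and Crygf) held the shared crystallin run. A global alignment of the Cryga and Crygf promoters gave 57.9% identity, and one of Avp and Oxt gave 49.1%. The Npy promoter held none of the 4 motifs. A match describes letters in the reference and was not tested as a binding site.

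The libraries carried defining transcripts of the lens and cornea. The lens gene Cryaa lay between 18391 and 53089 RPKM (reads scaled to transcript length and to mapped reads) in all 9 libraries, and the corneal keratin gene Krt12 between 1632 and 3015 RPKM. BALB/c libraries were more alike than those of the other strains, with a median within-strain SD of 0.1 on the log2 scale where A/J had 0.26 and C57BL/6J had 0.25, and A/J 3 and C57BL/6J 3 stood apart from their strains. Crystallins took 48.9% to 50.1% of the RPKM sum in BALB/c, 42.2% to 45.1% in A/J and 29.6% to 43.9% in C57BL/6J. Transcripts shorter than 1000 bases took 15.2% to 16.1% of the RPKM sum outside crystallins in BALB/c, 11.2% to 12.5% in A/J and 9.98% to 12.6% in C57BL/6J. This excess of short transcripts moved with the strain, so log2 differences with the trend over transcript length removed are given for the gene groups with short transcripts.

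Genes higher in BALB/c outnumbered genes lower in it. The test called 346 genes (2.68%), 263 higher (2.04%) and 83 lower (0.642%), using limma with Benjamini-Hochberg adjustment over all genes. Without regard to the test, 1333 genes were set apart (10.3%), 765 above (5.92%) and 568 below (4.4%). The log2 difference reached 1 in size for 141 of the 282 genes that met both criteria, 114 higher and 27 lower. All log2 differences are of scaled RPKM with 0.5 added, so those of low genes are understated.

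The excess of higher genes depended on scaling and on 2 libraries. With the values as deposited, which moved the median of all genes from -0.01 to -0.12, 155 genes were set apart and called higher and 104 lower. With the length trend removed the split was 139 higher and 78 lower, and without A/J 3 and C57BL/6J 3 it was 1748 higher and 1882 lower. Leaving out a single library gave 183 genes set apart and called without A/J 1, 992 without A/J 3, 126, 100 and 87 without BALB/c 1, 2 and 3, and 434 without C57BL/6J 3. Of the 282 genes, 266 passed the filter on low values in each fit without a BALB/c library, and 64 of these passed the test in every alternative that tested them, 49 higher and 15 lower.

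Set against each strain alone, BALB/c differed from A/J in 320 genes (2.48%) and from C57BL/6J in 399 (3.09%), and both comparisons use the same BALB/c libraries. For 146 of the 282 genes (1.13% of genes tested) both comparisons passed in the same direction, for 57 only the comparison with A/J passed, for 61 only that with C57BL/6J, and for 18 neither. A/J and C57BL/6J also differed from each other by the test in 28 of the 282 genes, against 2.69% of all genes tested (348). The plot of the BALB/c difference from each strain shows where such genes lie.

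**Figure D1:**
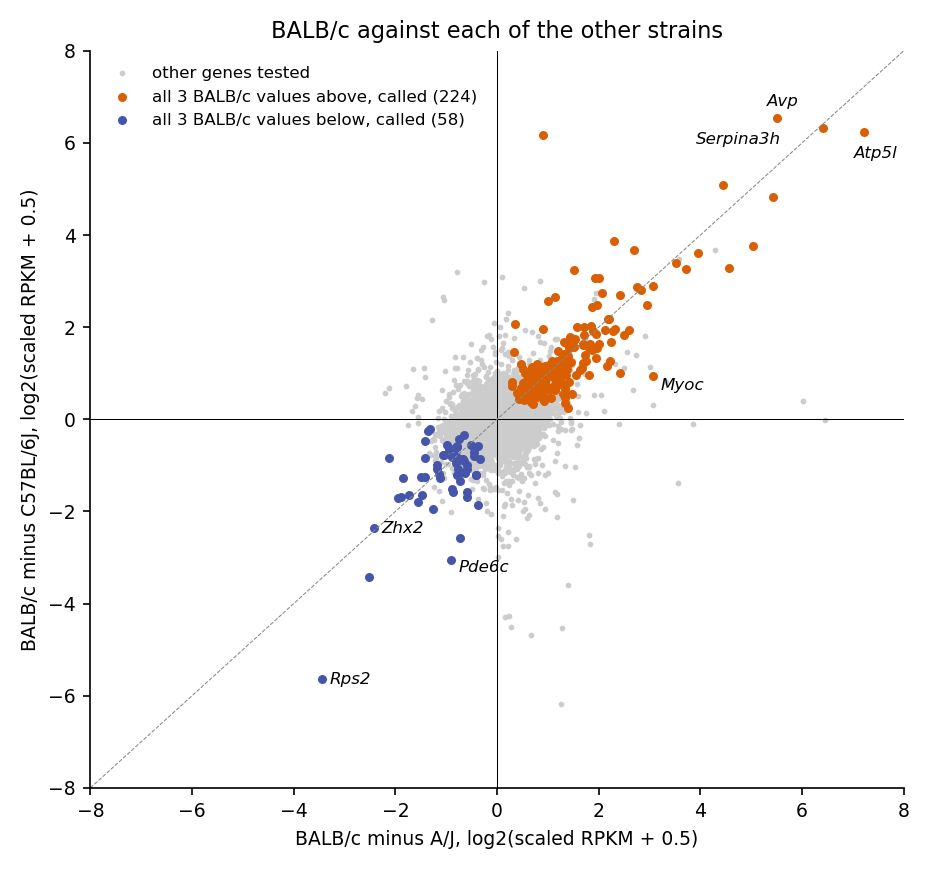
Each point is a gene, with the BALB/c minus A/J difference on the x axis and the BALB/c minus C57BL/6J difference on the y axis, both on the log2(scaled RPKM + 0.5) scale. Orange points (224) and blue points (58) are genes with all 3 BALB/c values above or below the 6 others that passed the test; the dashed line marks equal differences. Points of genes listed at 0 in a strain depend on the 0.5 that was added.

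Neuropeptide genes were among the furthest apart. Of 27 measured genes for neuropeptides and their processing, 4 were higher in BALB/c (14.8%, against 1.73% of all genes) and none lower, and these were Avp, Oxt, Npy and Sst. The median of the list was 0.13, against -0.01 for all genes. In bulk tissue, more cells of a type and more RNA per cell cannot be told apart.

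Avp, which encodes the precursor of arginine vasopressin, stood at 63.6, 86.8 and 69.1 RPKM in BALB/c 1, 2 and 3. Its A/J values were 0.89, 0.9 and 1.95 RPKM, and its C57BL/6J values 0 (as listed), 1.06 and 0.27 RPKM. Every BALB/c value lay far above every other value, with no overlap. The difference was 6.03 ± 0.34 on the log2 scale (SE; adjusted p = 3.3e-05), and it was 6.87 with 0.1 and 5.49 with 1 in place of 0.5 as the added value.

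Oxt, the oxytocin precursor gene next to Avp, was far less abundant. Its values were 2.83, 4.81 and 3.4 RPKM in BALB/c, 0.54, 0.24 and 1.26 RPKM in A/J, and 0 (as listed), 0.82 and 0.24 RPKM in C57BL/6J. The lowest BALB/c value was above the highest of the others, and the difference was 2.22 ± 0.35 (adjusted p = 0.01). Avp and Oxt were thus both set apart in the same direction, at levels per length that differed within BALB/c (73.2 ± 12.1 and 3.68 ± 1.02 RPKM, SD over 3 libraries). Oxt shared 21.9% of its sequence windows of 31 bases with other loci and is uncertain for that reason.

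Npy, the gene of neuropeptide Y, had values of 71.8, 61.8 and 75.3 RPKM in BALB/c, 30.0, 33.1 and 31.1 RPKM in A/J, and 27.3, 28.3 and 27.7 RPKM in C57BL/6J. The other strains were close to each other and below BALB/c in every library. The log2 difference was 1.34 ± 0.11 (adjusted p = 0.00025). Sst, the somatostatin gene, had values of 8.75, 13.3 and 8.98 RPKM in BALB/c against 3.54, 5.13 and 2.75 RPKM in A/J and 3.32, 3.08 and 3.74 RPKM in C57BL/6J. BALB/c was again higher without overlap, by 1.52 ± 0.20 (adjusted p = 0.004).

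The transcripts of these 4 genes are short, with annotated lengths of 577 bases for Avp, 537 for Oxt, 566 for Npy and 721 for Sst. Of all genes tested under 750 bases, 27.5% were set apart and called higher. With the length trend removed, the log2 difference was 5.53 for Avp (adjusted p = 0.00012), 0.83 for Npy (adjusted p = 0.0035) and 1.13 for Sst (adjusted p = 0.021), while that of Oxt was 1.68 and no longer passed (adjusted p = 0.073). The Oxt call was also lost without BALB/c 2 and without BALB/c 3, at adjusted p-values of 0.085 and 0.071. Other peptide genes were not called in the comparison, among them Cck (-0.05), Tac1 (-0.31), Vip (-0.85), Pomc (0.24) and Cartpt (0.51), and neither were the processing enzyme genes Pcsk1 (-0.49), Pcsk2 (-0.04) and Cpe (-0.36).

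Zhx2 was the gene lower in BALB/c with the smallest adjusted p among the 12 largest decreases. Its values were 0.73, 0.85 and 0.8 RPKM in BALB/c, 6.89, 5.45 and 7.8 RPKM in A/J, and 6.58, 6.94 and 6.92 RPKM in C57BL/6J. The other strains overlapped each other, and no BALB/c library reached 1 RPKM. The log2 difference was -2.40 ± 0.13 (adjusted p = 1.8e-05), with -2.43 against A/J and -2.36 against C57BL/6J. It passed the test in every alternative.

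Neither the related genes nor the measured genes that Zhx2 is known to act on in liver were called with it. Of 15 genes listed for the Zhx family and its linked genes, 9 were measured, and the alpha-fetoprotein gene was not among these. Of the 9, Zhx2 alone was called, and the median was 0.01. Zhx1 lay at -0.38 (adjusted p = 0.34) and Zhx3 at 0.10 (adjusted p = 0.75), and the liver targets Gpc3 and Lpl lay at 0.34 and 0.03. The fetal growth factor gene Igf2 lay at -0.14 and Elovl3 at -0.20, neither of them called.

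Of 16 measured serpin genes, 1 was set apart and called higher and 1 lower in BALB/c (12.5% in all, against 2.18% of all genes). They are neighbours on chromosome 12. Serpina3h was at 41.1, 44.5 and 43.4 RPKM in BALB/c and at no more than 0.13 RPKM elsewhere, with 0.06, 0.03 and 0.03 RPKM in A/J and 0.07, 0.04 and 0.13 RPKM in C57BL/6J. The difference was 6.37 ± 0.1 (adjusted p = 3.4e-09), and 8.21 with 0.1 and 5.46 with 1 as the added value. Serpina3n, a gene that astrocytes and Mueller glia raise on injury, was at 8.54, 8.99 and 9.6 RPKM in BALB/c, while A/J had 20.1, 19.8 and 14.1 RPKM and C57BL/6J had 33.0, 29.5 and 31.8 RPKM. It was lower in all 3 BALB/c libraries than in any other library, with a difference of -1.22 ± 0.14 (adjusted p = 0.0021).

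The Serpina3 genes share sequence, which makes both values uncertain. Serpina3h shared 39.8% and Serpina3n 21.6% of their 31-base windows with other loci, and how the authors' counting assigned such reads is not given in the sources used here. Serpina3g, the other measured member of the cluster, had values of 1.78, 1.58 and 1.51 RPKM in BALB/c, 1.19, 0.88 and 0.75 RPKM in A/J and 0.79, 0.44 and 1.29 RPKM in C57BL/6J. Its BALB/c values were set apart above the others, but the difference of 0.73 did not pass (adjusted p = 0.083). The plot of these genes by library shows the opposite positions of Serpina3h and Serpina3n.

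**Figure D2:**
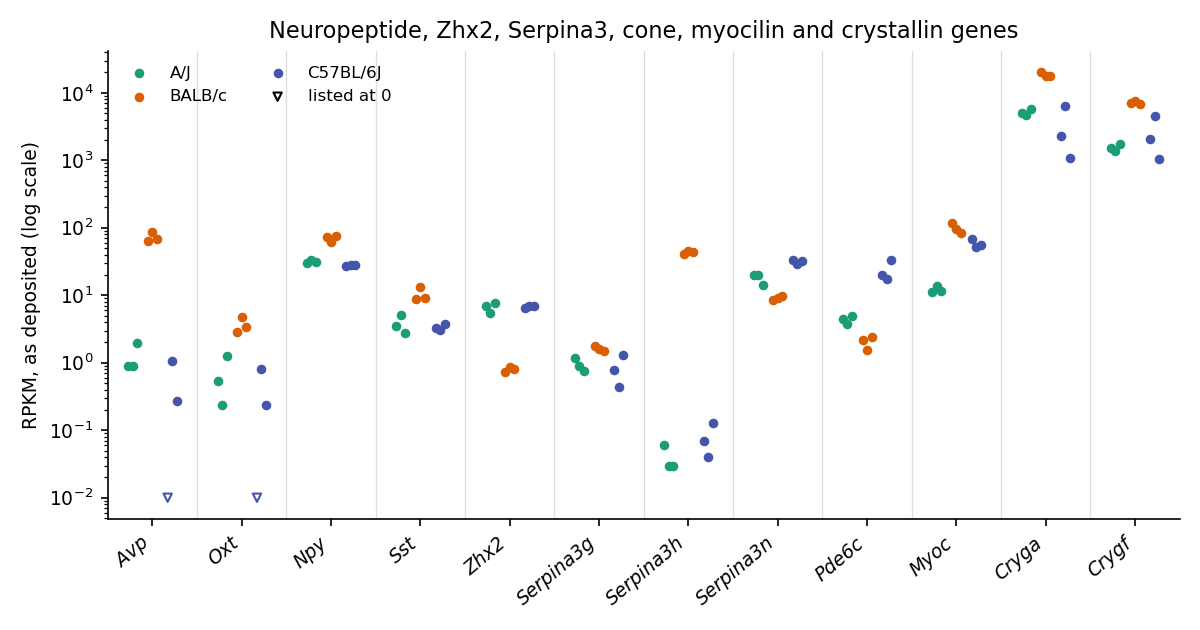
Deposited RPKM on a log axis for 12 genes, with 1 point per library and colours for the strains; open triangles mark values listed at 0. BALB/c points lie above all others for Avp, Oxt, Npy, Sst, Serpina3g, Serpina3h, Myoc, Cryga and Crygf and below all others for Zhx2, Serpina3n and Pde6c.

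Most lens genes did not pass the test. Of 16 measured crystallin genes, 2 were set apart and called higher (12.5%, against 1.73% of all genes), Cryga and Crygf. None was with quantile normalization or with the length trend removed. Of the 16 crystallin transcripts, 14 are shorter than 1000 bases. Among all genes, 27.5% of those under 750 bases and 8.24% of those from 750 to 1000 were set apart and called higher. The differences of all 16 were above 0 with a median of 0.71, but quantile normalization left 11 above 0 with a median of 0.08, and 15 were above 0 with the values as deposited and 13 with the length trend removed. Among 19 other lens fibre genes the median was 0.30 and 1, Grifin, met both criteria (5.26%). Gluld1, of the same list, was called higher with overlapping values (1.15, adjusted p = 0.0065). Summed over the crystallin list, the level was 292000 to 301000 RPKM in BALB/c, 222000 to 240000 RPKM in A/J and 153000 to 233000 RPKM in C57BL/6J.

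Cryga, a gamma-crystallin gene of fibre cells, stood at 20280.2, 17971 and 17516 RPKM in BALB/c, in A/J at 4933, 4673 and 5722 RPKM, and in C57BL/6J at 2293, 6315 and 1072 RPKM. BALB/c was above every other library, while the C57BL/6J libraries were widely spread. The log2 difference was 2.50 ± 0.48 (adjusted p = 0.026), but the comparison with A/J alone did not pass (1.93, adjusted p = 0.12). Crygf stood at 6992, 7433 and 6911 RPKM in BALB/c against 1528, 1356 and 1731 RPKM in A/J and 2097, 4465 and 1032 RPKM in C57BL/6J, a difference of 2.10 ± 0.4 (adjusted p = 0.027), and with 47.2% of its windows shared it is uncertain. Its comparison with C57BL/6J alone did not pass (1.92, adjusted p = 0.071).

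Both crystallin transcripts are short, at 625 and 627 bases. With the length trend removed, neither gene passed: Cryga lay at 2.04 (adjusted p = 0.06) and Crygf at 1.64 (adjusted p = 0.072). With quantile normalization they did not pass either, at 1.88 (adjusted p = 0.086) and 1.58 (adjusted p = 0.051), and Cryga did not with the 6 other libraries as 1 group (adjusted p = 0.066). The call of Cryga was lost without A/J 1 (adjusted p = 0.071), A/J 2 (0.066), C57BL/6J 1 (0.062) or any BALB/c library (0.14 each), and that of Crygf without A/J 1 (0.072), A/J 2 (0.069), C57BL/6J 1 (0.062) or BALB/c 1 (0.13), 2 (0.16) or 3 (0.15). Grifin, a lens galectin gene, had 998, 1010 and 1064 RPKM in BALB/c, 627, 629 and 608 RPKM in A/J and 583, 554 and 395 RPKM in C57BL/6J. It differed by 1.00 ± 0.16 (adjusted p = 0.012), and by 0.52 with the length trend removed (adjusted p = 0.089). Grifin also did not pass with quantile normalization (0.08), with the GC trend removed (0.12) or without BALB/c 1 (0.076), 2 (0.094) or 3 (0.11). Against A/J alone it did not pass either (0.79, adjusted p = 0.072).

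Outside these groups, the 12 largest increases by distance from the nearer strain included an extracellular protease, a mast cell protease and an epidermal enzyme. Tgm3, a transglutaminase that cross-links the cornified layer of epithelia, stood at 2.2, 1.92 and 2.03 RPKM in BALB/c and at no more than 0.11 RPKM in the other 6 libraries. The A/J values were 0.09, 0.1 and 0.05 RPKM and the C57BL/6J values 0.11, 0.07 and 0.11 RPKM. The groups were far apart, by 2.19 ± 0.11 (adjusted p = 1.2e-05). The skin and lid list, to which Tgm3 does not belong, had no called gene among 5 measured, and its sum was 22.9 to 37.4 RPKM in BALB/c, 16.8 to 42.3 RPKM in A/J and 20.2 to 26.9 RPKM in C57BL/6J.

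Tpsab1, a tryptase gene of mast cells, stood at 3.23, 3.86 and 3.39 RPKM in BALB/c, 0.43, 0.57 and 0.5 RPKM in A/J, and 0.19, 0.06 and 0.16 RPKM in C57BL/6J. BALB/c was highest and C57BL/6J lowest with no overlap between any strains, and the BALB/c difference was 2.41 ± 0.12 (adjusted p = 1.2e-05). Of 8 mast cell genes measured, Tpsab1 alone was called, 5 lay above 0, and the median was 0.27. Cma1 (0.31), Mcpt4 (0.32), Cpa3 (-0.10) and Kit (-0.10) did not pass. Tpsb2, a related tryptase gene, was set apart above the others but did not pass (0.72, adjusted p = 0.11). The sum over the mast cell list, which was chosen after values were seen, was 24.5 to 25.8 RPKM in BALB/c, 15.4 to 22.3 RPKM in A/J and 19.4 to 30.0 RPKM in C57BL/6J.

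Plau, the gene of the urokinase plasminogen activator, had 5.24, 5.26 and 4.88 RPKM in BALB/c, 0.73, 0.64 and 1.29 RPKM in A/J and 0.83, 0.7 and 2.22 RPKM in C57BL/6J. The difference was 2.03 ± 0.24 (adjusted p = 0.0023). Bst1, which encodes a cell-surface ADP-ribosyl cyclase, had 4.56, 4.04 and 4.21 RPKM in BALB/c and between 0.74 and 1.41 RPKM in the other libraries (1.67 ± 0.13, adjusted p = 0.00017). The longest annotated transcripts of Plau and Bst1, of 2342 and 2856 bases, are not short, and the differences with the length trend removed were 2.03 and 1.69.

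H2-Ea, the alpha chain gene of a class II major histocompatibility molecule, differed among all 3 strains. It was at 6.77, 6.09 and 6.32 RPKM in BALB/c, at 0.82, 0.8 and 1.35 RPKM in A/J, and listed at 0 in all 3 C57BL/6J libraries; C57BL/6 strains are known to carry a deletion in this gene. BALB/c exceeded A/J by 2.30 ± 0.15 (adjusted p = 0.00013). For H2-Ea too, no share of sequence was found. The class II genes H2-Aa, H2-Ab1 and H2-Eb1 were not called (-0.23, 0.50 and -0.42).

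Gng5, which encodes a gamma subunit of heterotrimeric G proteins, had 96.6, 91.6 and 97.7 RPKM in BALB/c and between 27.1 and 43.3 RPKM in the other libraries (1.61 ± 0.14, adjusted p = 0.00032). Ocel1, a gene with an occludin domain, had 8.87, 7.69 and 9.75 RPKM in BALB/c against 1.39 to 3.71 RPKM in A/J and 2.01 to 3.75 RPKM in C57BL/6J (1.72 ± 0.25, adjusted p = 0.0072), a call that was lost without BALB/c 1 (adjusted p = 0.053) or BALB/c 3 (0.069). Dynlt1, a dynein light chain gene, had 7.39, 8.23 and 10.8 RPKM in BALB/c, 0.08, 0 (as listed) and 1.68 RPKM in A/J, and 0.5, 0.59 and 0.3 RPKM in C57BL/6J. BALB/c was higher without overlap in each of these genes. For Dynlt1 no transcript length or share of sequence was found, so whether it shares sequence with other loci is unknown. The plot of the largest differences shows them by library, together with Usmg5 and Rpl36al, which are described with the ribosomal and respiratory genes.

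**Figure D3:**
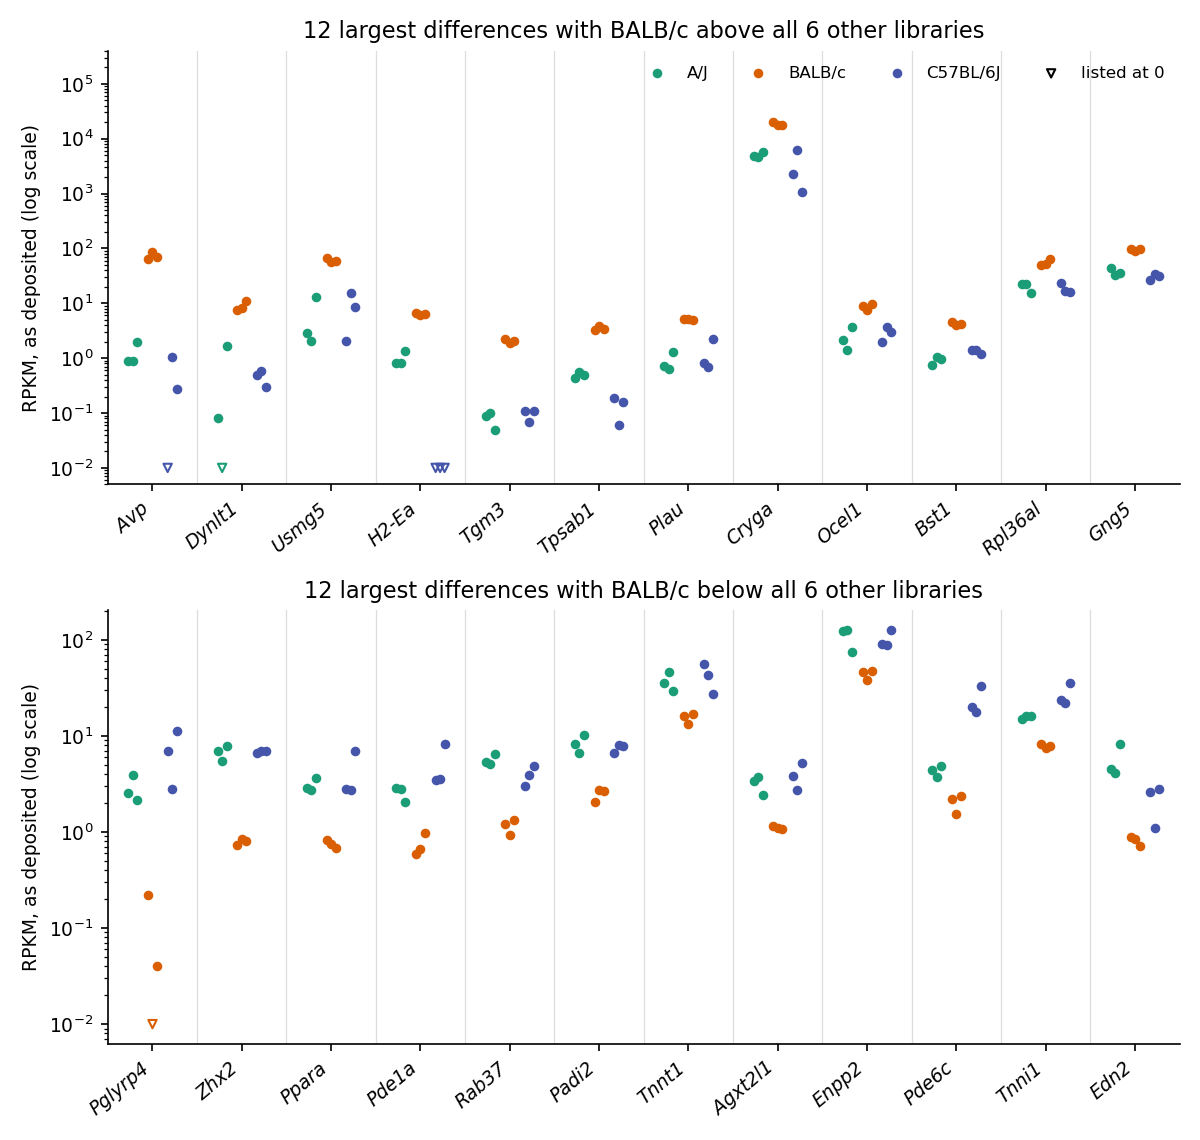
Deposited RPKM on a log axis for the 12 largest increases (top) and the 12 largest decreases (bottom) in BALB/c by distance from the nearer strain, with 1 point per library and open triangles for values listed at 0. In every panel column the 3 BALB/c points lie on 1 side of the 6 others, from Avp with 63.6 to 86.8 RPKM against at most 1.95 RPKM to Edn2 with 0.71 to 0.89 RPKM against at least 1.11 RPKM.

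Short transcripts and transcripts that share sequence made up much of the group that was higher in BALB/c. The 217 higher genes with an annotated transcript had a median length of 1153 bases, against 3151.5 for all genes tested, and 98 of them (45.2%) were under 1000 bases, against 4.81% of all genes. At least 20% of the sequence was shared with other loci in 86 of them (39.6%), against 4.99% of all genes. The 57 lower genes with a transcript were not short, with a median of 2887 bases and 1.75% under 1000 bases, and 21.1% of them shared sequence.

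The share of genes set apart and called higher fell with every step of length. It was 27.5% under 750 bases (68 of 247 genes), 8.24% from 750 to 1000, 3.21% from 1000 to 1500, 1.26% from 1500 to 2500, 0.819% from 2500 to 4000 and 0.387% from 4000 bases on. The median log2 difference over the same classes went from 0.48 and 0.28 to 0.11, 0.01, -0.04 and -0.05. Genes under 750 bases lay above their mean in BALB/c 1, 2 and 3 by a median of 0.40, 0.27 and 0.37 and below it in the other 6 libraries, by -0.05 in C57BL/6J 1 to -0.38 in C57BL/6J 3. Among the genes under 750 bases, 43.7% of those with at least 20% shared sequence and 21% of the others were set apart and called higher. The cause of this trend was not tested.

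**Figure D4:**
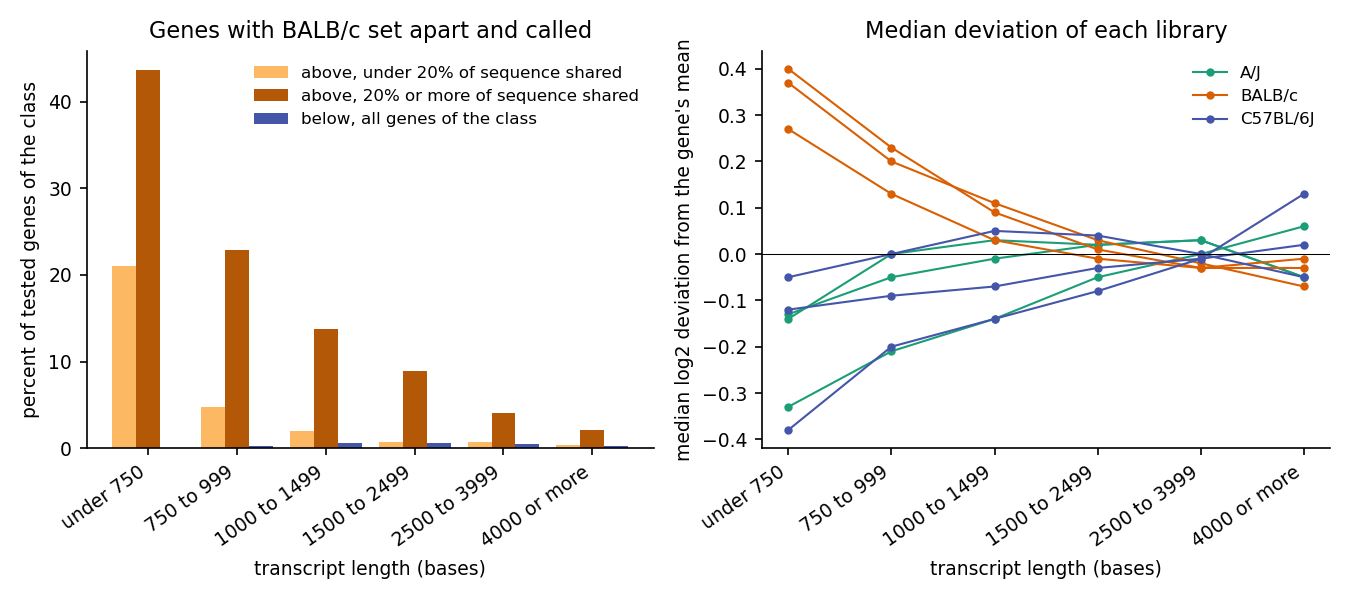
Left, the percent of tested genes in each class of transcript length that were set apart and called, above for genes with under 20% or with 20% or more of their sequence shared, and below for all genes of the class. Right, the median log2 deviation of each library from the gene's mean over 9 libraries; the 3 BALB/c lines start between 0.27 and 0.40 under 750 bases and meet the others from 1500 bases on.

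Ribosomal protein genes and genes of the respiratory chain were among the genes set apart. Of 84 measured genes for cytoplasmic ribosomal proteins, 28 were set apart and called higher (33.3%, against 1.73% of all genes) and 2 lower, with a median of 0.66. Their sum was 9830 to 10600 RPKM in BALB/c, 5540 to 7030 RPKM in A/J and 6440 to 8270 RPKM in C57BL/6J. Sequence is shared with other loci, such as processed pseudogenes, in 70 of the 84, and only 5 of the 30 genes set apart and called had under 20% shared. Of 80 measured genes of the respiratory chain and ATP synthase, 17 were set apart and called higher (21.2%, against 1.73% of all genes) and none lower. The median was 0.46, and 11 of the 17 had under 20% shared. Transcripts under 1000 bases made up 48 of the 84 ribosomal and 45 of the 80 respiratory genes. Among all genes, 27.5% of those under 750 bases and 8.24% of those from 750 to 1000 were set apart and called higher. For genes under 750 bases with at least 20% shared sequence, that share was 43.7%. With the length trend removed the medians were 0.47 for the ribosomal and 0.11 for the respiratory list, with 57 of 84 and 52 of 80 genes above 0. Of the respiratory genes 11 were set apart and called with the values as deposited and 10 with quantile normalization. Both lists were chosen after values were seen.

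The members of these lists did not move as 1 block. Rps2, a small-subunit gene, was lower, at 0.48, 0.4 and 0.9 RPKM in BALB/c, 8.73, 7.44 and 22.4 RPKM in A/J and 49.9, 51.1 and 77.8 RPKM in C57BL/6J (-4.54 ± 0.32, adjusted p = 0.00013). With 62.1% of its windows shared, Rps2 is uncertain. Atp5l, a subunit gene of ATP synthase, was listed at 0 in all A/J libraries, at 2.18, 0 and 0.28 RPKM in C57BL/6J and at 53.4, 83.1 and 75.5 RPKM in BALB/c, and with 69.7% shared it is uncertain too. With the length trend removed, 21 ribosomal protein genes were set apart and called higher and 2 lower, and 7 respiratory chain genes were higher.

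Among the genes of these kinds with under 20% shared sequence was Rpl36al, with 49.4, 51.1 and 64.2 RPKM in BALB/c against 15.2 to 22.6 RPKM in A/J and 15.8 to 23.3 RPKM in C57BL/6J (1.62 ± 0.2, adjusted p = 0.0027). Usmg5, a small protein gene of the mitochondrial ATP synthase, had 66.5, 56.8 and 59.2 RPKM in BALB/c, 2.9, 2.06 and 12.9 RPKM in A/J and 2.07, 15.3 and 8.43 RPKM in C57BL/6J (3.50 ± 0.62, adjusted p = 0.019). The other strains were low and widely spread, and the call was lost without A/J 1 (adjusted p = 0.055) or any BALB/c library (0.11 to 0.12). Hspe1, the mitochondrial chaperonin gene, was the only called gene of 24 heat shock genes (0.74, adjusted p = 0.024), with 48.1% of its windows shared. Its transcript has 774 bases, and it lay at 0.39 with the length trend removed (adjusted p = 0.23). The call was also lost without A/J 1 (0.065), C57BL/6J 1 (0.053) or BALB/c 1, 2 or 3 (0.13, 0.11 and 0.18). Against A/J alone Hspe1 did not pass (0.72, adjusted p = 0.055).

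Among the 12 largest decreases in BALB/c were a nuclear receptor gene and several enzyme genes. Ppara, the nuclear receptor that controls fatty acid oxidation, had 0.82, 0.75 and 0.68 RPKM in BALB/c, 2.84, 2.77 and 3.66 RPKM in A/J, and 2.8, 2.74 and 6.9 RPKM in C57BL/6J (-1.56 ± 0.22, adjusted p = 0.0062). Pde1a, a calmodulin-dependent phosphodiesterase gene, had 0.59, 0.67 and 0.97 RPKM in BALB/c, 2.86, 2.78 and 2.07 RPKM in A/J, and 3.48, 3.54 and 8.17 RPKM in C57BL/6J (-1.60 ± 0.23, adjusted p = 0.0063). C57BL/6J 3 was the highest library for both genes. Ppara was not called without BALB/c 2 (adjusted p = 0.051) or BALB/c 3 (0.059), and Pde1a was not without BALB/c 1 (0.054) or BALB/c 2 (0.056).

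Rab37, a small GTPase gene of secretory granules, had 1.21, 0.92 and 1.33 RPKM in BALB/c against 5.31, 5.1 and 6.54 RPKM in A/J and 3.02, 3.92 and 4.85 RPKM in C57BL/6J (-1.56 ± 0.15, adjusted p = 0.0007). Padi2, a gene for an enzyme that turns arginine into citrulline in proteins, had 2.07, 2.77 and 2.68 RPKM in BALB/c and between 6.59 and 10.3 RPKM in the other libraries (-1.38 ± 0.16, adjusted p = 0.002). Both kept their calls in every alternative. Agxt2l1, an ethanolamine phosphate lyase gene, had 1.16, 1.1 and 1.07 RPKM in BALB/c and 2.42 to 5.28 RPKM elsewhere (-1.21 ± 0.18, adjusted p = 0.0068). Its call was lost without BALB/c 2 (0.056) or BALB/c 3 (0.062).

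Enpp2, which encodes the secreted lipid enzyme autotaxin, was the most abundant of the 12 largest decreases. It had 46.7, 38.2 and 47.4 RPKM in BALB/c, 123.8, 127.2 and 75.5 RPKM in A/J, and 90.7, 88.2 and 126.0 RPKM in C57BL/6J. The BALB/c values lay below all others, by -1.10 ± 0.19 (adjusted p = 0.016), and the call was lost without any of BALB/c 1 (0.085), 2 (0.12) or 3 (0.091). Of 19 measured genes of the retinal pigment epithelium and visual cycle, Enpp2 was the only gene called, and the list's median was -0.06.

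Pglyrp4, a peptidoglycan recognition protein gene, was nearly absent from the BALB/c values, at 0.22, 0 (as listed) and 0.04 RPKM. It had 2.57, 3.88 and 2.13 RPKM in A/J and 7.03, 2.82 and 11.4 RPKM in C57BL/6J, and the difference passed the test (adjusted p = 0.002). Edn2, an endothelin gene that injured photoreceptors raise, had 0.89, 0.84 and 0.71 RPKM in BALB/c, 4.49, 4.16 and 8.31 RPKM in A/J and 2.64, 1.11 and 2.83 RPKM in C57BL/6J. BALB/c was lowest, by -1.48 ± 0.26 (adjusted p = 0.016), but the comparison with C57BL/6J alone did not pass (-0.84, adjusted p = 0.23), and the call was lost without any BALB/c library (adjusted p of 0.088 to 0.12). Of 23 Mueller glia and gliosis genes, Edn2 and Serpina3n were set apart and called lower (8.7%, against 0.449% of all genes) and none higher. Gfap (-0.21), Glul (0.16) and Lcn2 (-0.25) were not called.

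Itpa, an enzyme gene that clears inosine triphosphate, had 5.86, 5.94 and 5.62 RPKM in BALB/c and between 20.0 and 27.2 RPKM in the other libraries. The difference was -1.82 ± 0.12 (adjusted p = 6e-05), and with 34.6% of its windows shared it is uncertain. Its neighbour Slc4a11, a transporter gene of the corneal endothelium, went the other way, at 23.5, 22.2 and 24.1 RPKM in BALB/c against 11 to 18.8 RPKM elsewhere (0.76 ± 0.13, adjusted p = 0.014).

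The cone gene Pde6c separated all 3 strains. Pde6c encodes the catalytic subunit of the cone phosphodiesterase, which breaks down cyclic GMP in response to light. It stood at 2.18, 1.53 and 2.37 RPKM in BALB/c, while A/J had 4.47, 3.74 and 4.89 RPKM, and C57BL/6J had 19.8, 17.7 and 33.5 RPKM. BALB/c was lowest and C57BL/6J highest with no overlap. The difference from the mean of the other strains was -1.98 ± 0.19 (adjusted p = 0.0007). Against C57BL/6J alone it was -3.06 ± 0.21 (adjusted p = 8.2e-05), while against A/J it was -0.90 ± 0.21 and did not pass (adjusted p = 0.071).

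The rest of the cone cascade showed smaller values. Of 14 cone genes Pde6c was the only one called, with a list median of -0.27 and 11 genes below 0, 12 with the length or the GC trend removed and 13 with the values as deposited or with quantile normalization. The blue and green cone opsin genes Opn1sw and Opn1mw lay at 0.01 and -0.27, and the cone transducin gene Gnat2 at -0.47. Of 24 rod genes, 1 was higher: Nr2e3, a nuclear receptor of rods, at 236.1, 241.0 and 250.9 RPKM in BALB/c, 187.9, 187.8 and 186.0 RPKM in A/J and 194.2, 202.8 and 215.3 RPKM in C57BL/6J. This difference was 0.44 ± 0.09 (adjusted p = 0.046), and it did not pass with the values as deposited (0.097), with quantile normalization (0.19) or without A/J 1 (0.11), A/J 2 (0.095), C57BL/6J 1 (0.095), C57BL/6J 2 (0.067) or BALB/c 1, 2 and 3 (0.17, 0.28 and 0.33). Nor did Nr2e3 pass against A/J alone (0.44, adjusted p = 0.077) or C57BL/6J alone (0.43, adjusted p = 0.08). Of 14 bipolar cell genes, Gng13, a G protein gamma subunit, was set apart at 105.1, 101.7 and 103.4 RPKM in BALB/c against 66.1 to 81.3 RPKM elsewhere (0.65, adjusted p = 0.014), and it lay at 0.26 with the length trend removed (adjusted p = 0.35). Its call was also lost with the GC trend removed (0.46, adjusted p = 0.24) and without BALB/c 1 (0.1), 2 (0.11) or 3 (0.12). Against A/J alone Gng13 did not pass (0.57, adjusted p = 0.055). Prkca, another gene of the bipolar list, was called higher with overlapping values (0.63, adjusted p = 0.0086). Genes set apart and called higher made up 7.14% of the bipolar and 4.17% of the rod list, against 1.73% of all genes.

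Of 24 measured genes of extraocular muscle, 2 were set apart and called lower, Actn3 and Tnnt1 (8.33%, against 0.449% of all genes), none was higher, and the list's median was -0.26. Actn3, the alpha-actinin of fast fibres, had 5.72, 4.73 and 6.11 RPKM in BALB/c and between 9.94 and 12.3 RPKM in the other libraries (-0.85 ± 0.14, adjusted p = 0.012). Tnnt1, the troponin T of slow fibres, had 16.0, 13.3 and 17.1 RPKM in BALB/c, 35.4, 45.9 and 29.1 RPKM in A/J and 55.6, 43.4 and 27.2 RPKM in C57BL/6J (-1.17 ± 0.25, adjusted p = 0.049). It did not pass against A/J alone (-1.14, adjusted p = 0.09) or C57BL/6J alone (-1.19, adjusted p = 0.076). Tnni1, the troponin I of slow fibres, had 8.3, 7.42 and 7.94 RPKM in BALB/c, 14.8, 16.2 and 16.1 RPKM in A/J and 23.5, 22.3 and 35.3 RPKM in C57BL/6J (-1.20 ± 0.13, adjusted p = 0.0012).

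The muscle left on an enucleated eye can vary, and its part in these differences was not tested. The abundant sarcomere genes Acta1 (0.07), Ckm (0.06) and Mylpf (-0.04) were not called, and the list's sum was 2010 to 2620 RPKM in BALB/c, 2270 to 3450 RPKM in A/J and 2710 to 3140 RPKM in C57BL/6J. The call of Tnnt1 was lost when any 1 library other than A/J 3 or C57BL/6J 3 was left out, at adjusted p-values of 0.077 to 0.28, and that of Actn3 without BALB/c 1 (0.075), 2 (0.11) or 3 (0.062). Tnni1 kept its call in every alternative.

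Immune genes went in both directions. Of 48 interferon response genes, 2 were set apart and called higher (Ifitm2 and Ifi27) and 4 lower (Ifi204, Ifit3, Oasl2 and Bst2), with a median of -0.08. Together these made 12.5% of the list, against 2.18% of all genes. Isg15, Oas3 and Gbp1 were called higher with overlapping values. Ifitm2, an interferon-induced membrane protein gene, had 94.2, 88.9 and 96.7 RPKM in BALB/c and 49.2 to 66.3 RPKM elsewhere (0.82 ± 0.11, adjusted p = 0.0036); it shared 37.4% of its windows and lay at 0.38 with the length trend removed (adjusted p = 0.13). Ifi204, a gene of the DNA-sensing family, had 0.98, 0.55 and 0.67 RPKM in BALB/c, 2.85, 3.84 and 2.04 RPKM in A/J and 3.69, 1.87 and 2.82 RPKM in C57BL/6J (-1.34 ± 0.23, adjusted p = 0.014), with 46.0% shared, and its call was lost without BALB/c 2 or BALB/c 3 (0.11 each). Ifi27 had 40.6, 31.8 and 31.2 RPKM in BALB/c, close above the 27.5 to 29.1 RPKM of A/J and well above the 11.8 to 15.3 RPKM of C57BL/6J, and the comparison with A/J alone did not pass (0.34, adjusted p = 0.23). Of the 27 measured genes of antigen presentation, H2-Ea was set apart and called higher and the class I genes H2-K1 and H2-D1 lower (11.1% in all). Another 4 were called with BALB/c values that overlapped those of another strain. These were the class I genes H2-Q10 (1.68, adjusted p = 0.0062), H2-Q6 (1.18, adjusted p = 0.04) and H2-T23 (0.75, adjusted p = 0.034), which were higher, and the class II gene H2-DMb1 (-0.78, adjusted p = 0.039), which was lower.

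H2-D1 had 58.0, 54.5 and 60.5 RPKM in BALB/c, 76.4, 83.5 and 76.0 RPKM in A/J and 100.8, 88.9 and 105.3 RPKM in C57BL/6J (-0.48 ± 0.1, adjusted p = 0.036). H2-K1 had 33.6, 35.9 and 36.6 RPKM in BALB/c, 48.0, 53.6 and 52.3 RPKM in A/J and 74.5, 50.3 and 74.9 RPKM in C57BL/6J (-0.58 ± 0.13, adjusted p = 0.049). Alleles of these genes are known to differ between some of the strains, and the part of the alleles in the values was not tested. H2-D1 shared 27.9% and H2-K1 20.3% of their windows. Against A/J alone neither H2-D1 (-0.37, adjusted p = 0.14) nor H2-K1 (-0.46, adjusted p = 0.16) passed. Neither call held without any of BALB/c 1, 2 or 3 (adjusted p of 0.18 to 0.27), A/J 1 (0.11 for both), A/J 2 (0.086 and 0.11) or C57BL/6J 1 (0.084 and 0.088), and that of H2-D1 also failed without C57BL/6J 2 (0.066).

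Of 47 genes for glutathione and antioxidant enzymes, 3 were set apart and called higher (6.38%, against 1.73% of all genes) and none lower, with a median of 0.10. Gstp1, a glutathione transferase gene, had 97.8, 133.1 and 138.0 RPKM in BALB/c, 49.9, 44.2 and 51.5 RPKM in A/J and 56.5, 69.0 and 50.2 RPKM in C57BL/6J (1.31 ± 0.17, adjusted p = 0.0039). Its neighbour Gstp2 was set apart too, at 3.83, 3.58 and 4.91 RPKM against at most 1.23 RPKM, and since they shared 57.8% and 56.9% of their windows both are uncertain. Gstm2 had 23.8, 20.9 and 22 RPKM in BALB/c and 7.48 to 10.9 RPKM elsewhere (1.25 ± 0.15, adjusted p = 0.0023). Mgst3, a membrane-bound member, had 63.2, 63.3 and 68.6 RPKM in BALB/c and 40.2 to 50.4 RPKM elsewhere (0.69 ± 0.1, adjusted p = 0.0062). Gstp1, Gstm2 and Mgst3 passed with the length trend removed, at 0.99, 1.04 and 0.51, but the call of Mgst3 was lost without BALB/c 2 (adjusted p = 0.061) or BALB/c 3 (0.082).

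Myoc, the myocilin gene of the trabecular meshwork in which some glaucoma mutations lie, also separated all 3 strains. It had 119.1, 97.3 and 84.3 RPKM in BALB/c, 68.9, 51.1 and 55.9 RPKM in C57BL/6J and 11.1, 13.6 and 11.7 RPKM in A/J. The difference was 2.00 ± 0.15 (adjusted p = 0.00018), made up of 3.06 ± 0.18 against A/J (adjusted p = 5.5e-05) and 0.94 ± 0.18 against C57BL/6J (adjusted p = 0.022). Myoc was the only gene called among 40 genes of the extracellular matrix and glaucoma. With the values as deposited, 1 gene of this list was set apart and called higher and 3 lower, and with the GC trend removed 1 higher and 2 lower.

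No gene was set apart and called in the lists for amacrine, horizontal and ganglion cells (26 measured), photoreceptor outer segments and dystrophies (25), melanin synthesis (17), cornea and conjunctiva (20), complement (16), microglia and macrophages (23), blood (4), myelin (14), vessels (19), immediate early genes (18), clock genes (23), lacrimal and Harderian glands (3) or aldehyde and alcohol dehydrogenases (21). Their medians lay between -0.23 and 0.23, except for the 3 gland genes, at -1.12. The fat list had a median of 0.97 over 10 genes, with Cidea called higher but overlapping, and its sum was 73.1 to 138 RPKM in BALB/c, 48.6 to 134 RPKM in A/J and 52.9 to 73.1 RPKM in C57BL/6J. Other genes of these lists were called with overlapping values: Adh6a (-2.07, adjusted p = 0.00017) and Adh7 (-1.08, adjusted p = 0.032) were lower, and Cerkl (1.03, adjusted p = 0.0019) and Mc1r (0.79, adjusted p = 0.0077) higher. With quantile normalization 2 dehydrogenase genes were set apart and called lower. With the length trend removed 2 microglia and macrophage genes were set apart and called lower and 1 melanin gene higher. With the GC trend removed 1 melanin gene and 1 vessel gene were higher and 1 cornea and conjunctiva gene was lower. In that setting 1 dehydrogenase gene was higher and 1 lower. The plot of gene lists shows these positions.

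**Figure D5:**
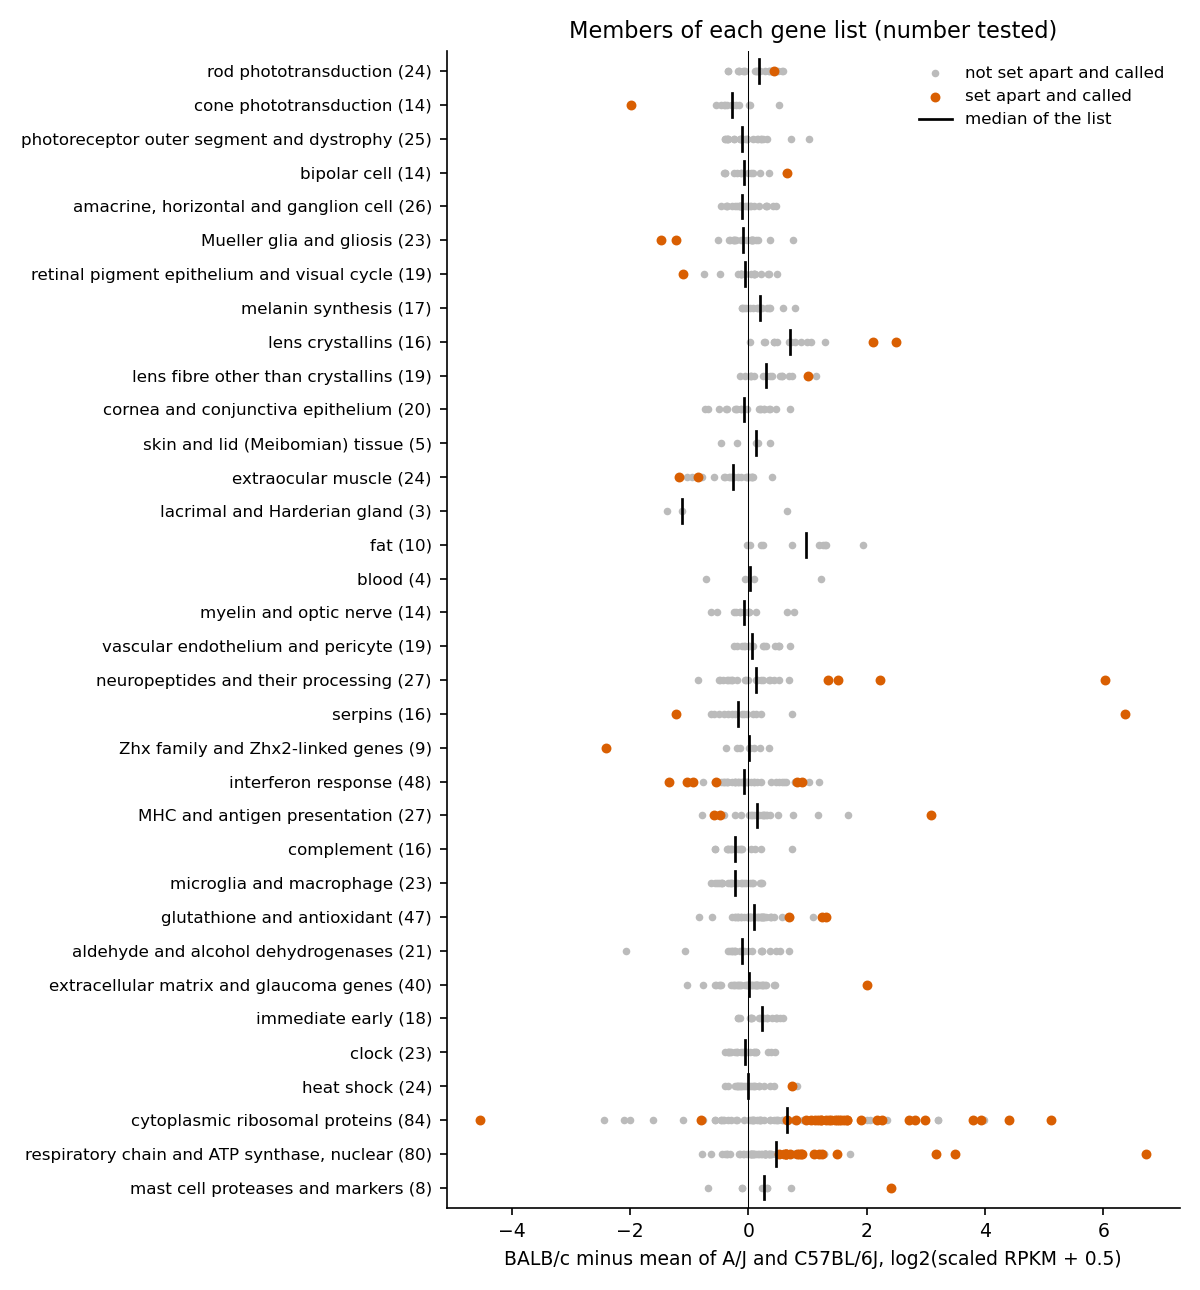
Each point is a measured gene of a list, with the BALB/c minus mean of A/J and C57BL/6J difference on the log2(scaled RPKM + 0.5) scale on the x axis; orange points were set apart and called, and black bars are list medians. The crystallin list, with a median of 0.71, and the ribosomal list, with 0.66, lie to the right, and the fat list, with 0.97 and no orange point, rests on 10 genes.

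Some of the genes lay side by side. The annotation's gene order held 12694 tested genes, 274 of them set apart and called. Of these 274, 25 had another such gene as a neighbour, in 12 runs. How many neighbours a random placement would give was not worked out. Oxt and Avp, and EG114600, Prb1 and Prpmp5, a salivary proline-rich protein cluster on chromosome 6, were higher together, while Serpina3h and Serpina3n, and Itpa and Slc4a11, went in opposite directions. In the chromosome 6 run Prb1 had 3.75, 3.32 and 5.16 RPKM in BALB/c, 0.55, 0.95 and 0.57 RPKM in A/J and 0.09, 0 (as listed) and 0.15 RPKM in C57BL/6J. Prpmp5 had 5.74, 4.72 and 7.19 RPKM in BALB/c, 1.55, 2.13 and 1.74 RPKM in A/J and 0.24, 0.12 and 0.32 RPKM in C57BL/6J, and both genes were ordered BALB/c, A/J, C57BL/6J with no overlap.

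At the border of the definition, Shisa4 was the called gene with the smallest gap above the others: its BALB/c values were 31, 37.8 and 39.5 RPKM and the nearest other was C57BL/6J 2 with 32.7 RPKM, separated by 0.01 on the log2 scale after scaling. Cyp4a12a was just inside the lower border, at 0.36, 0.49 and 0.37 RPKM in BALB/c and 0.57 RPKM in C57BL/6J 2. Against C57BL/6J alone neither Shisa4 (0.47, adjusted p = 0.31) nor Cyp4a12a (-0.25, adjusted p = 0.61) passed. Just outside, S100a7a had 11.1, 8.04 and 11.9 RPKM in BALB/c with C57BL/6J 1 at 9.07 RPKM, and Apoa2 was listed at 0 in all BALB/c libraries and in A/J 2. In all, 64 genes passed the test without being set apart.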

How the data were processed

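Poly(A) RNA of whole eyes was sequenced for 9 libraries, 3 each of A/J, BALB/c and C57BL/6J. The submitters' processing notes name CASAVA 1.7, GenomeStudio and the build mm9. The sources used here state no counting rule, strandedness or gene models, so antisense and overlapping genes cannot be told apart. Each library has a table of 13089 genes from the authors, and the deposited values were taken as RPKM because value times transcript length summed to 99.36% to 101.8% of what RPKM gives in 8 libraries and to 117.4% in C57BL/6J 3. The headers name no unit, and depth is unknown, so no counting intervals are given. The RPKM sums over listed genes, which are not depths, ranged from 511888 to 599635. A value listed at 0 may be a failed estimate, and 71 genes had one.

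Scaling used size factors by the median of ratios (0.931 to 1.158), and log2 was taken after adding 0.5. The 12920 genes with at least 1 RPKM in at least 3 libraries were fitted with limma 3.58.1 in R 4.3.3 (trended, robust prior variance; strain as the only term; all 9 libraries sharing 1 estimate of the spread). The contrast was BALB/c minus the mean of the other strains' means. Tests were two-sided, adjusted p-values are limma's with Benjamini-Hochberg adjustment over all genes, and a gene was called under 0.05. Errors of log2 differences are limma's SE. The script was tested on simulated data.

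Transcript length, GC content and shared sequence (31-base windows also found at another locus; 20% or more makes a gene uncertain) came from GENCODE M21, a build other than mm9, for 12858 genes (98.2%). Length and GC content are those of a gene's longest protein-coding transcript, or of its longest transcript where it has none. That transcript need not be the one expressed in the eye. Promoters came from RefSeq, GRCm38.p6. Genes were named by a rule: the 12 largest differences from the nearer strain in each direction with a mean of at least 2 RPKM on the higher side, passing over clone names, sex-linked genes and shared sequence (2 such named per direction as uncertain); up to 3 genes per list; Zhx2, Avp, Oxt, Pde6c and the Serpina3 genes; and the genes at the border. Other genes, and the ribosomal, respiratory and mast cell lists, were chosen after their values were seen. Of 772 genes in the other 31 lists, 633 were found. Genes for which no share of sequence was found, such as Dynlt1 and H2-Ea, were not passed over as shared. The genes and lists were chosen with earlier results of these data known. Replicate numbers were not used to pair libraries, since the correlations of same-numbered libraries ran from -0.51 to 0.54. Alternatives covered scaling, added value, filter, grouping, prior, GC and length trends, shared sequence and left-out libraries.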

Additional observations from a re-analysis of the deposited data

How the results depend on the processing

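The counts below are of genes called, of genes set apart and called, and of genes called against each strain singly; the values reported were 346, 282 and 146. Leaving out 1 library gave 109 to 1610, 87 to 992 and 38 to 307, lowest without BALB/c 3 and highest without A/J 3. Without A/J 3 and C57BL/6J 3 the counts were 6408, 3630 and 1276, and without A/J 1 and A/J 2 they were 206, 172 and 41. Genes without shared sequence gave 175, 147 and 63, a filter at 5 RPKM 217 called and 95 against each strain, and the 6 other libraries as 1 group 192 called. With the length trend removed, an alternative added after seeing the data, 97 were called against each strain. The split of called genes was 263 higher and 83 lower, against 180 and 133 with the values as deposited, 168 and 102 with the length trend removed, 957 and 653 without A/J 3, and 3237 and 3171 without A/J 3 and C57BL/6J 3. Of the libraries kept without A/J 3 and C57BL/6J 3, A/J 1, A/J 2 and C57BL/6J 1 had a negative GC trend. It was positive in C57BL/6J 2 and in all BALB/c libraries, and its part in those counts was not tested. With a replicate block, for numbers that do not pair the libraries, the counts were 358, 287 and 146. No other alternative moved a count by over 1.5 times. Of 51 named genes that were called, 28 failed in at least 1 alternative, 20 passed in all that tested them, and 3 more did so but were not tested without each BALB/c library; none changed direction. With the 6 other libraries as 1 group, Myoc (adjusted p = 0.19) and Pde6c (adjusted p = 0.21), whose values differ between A/J and C57BL/6J, did not pass, and the cause of the other losses was not tested. Genes seen in BALB/c alone were not tested when a BALB/c library was left out, since the filter asks for 3 libraries. Depth is unknown and limits what can be said of genes near 0.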
